A study of Homo sapiens with 72 samples.

Results

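The genes described here are 40 genes of mitosis and the G2/M phase of the cell cycle, out of 44659 gene names in the count table. They were chosen by symbol, as mitotic kinases, cyclins and their partners, spindle checkpoint genes, kinetochore genes, spindle motors and cytokinesis genes. All 40 had enough counts to be tested in every comparison. They were measured in A375 cells, an established human melanoma line with mutant BRAF, by QuantSeq, which sequences 1 tag from the 3′ end of each polyadenylated RNA. The RNA was cytoplasmic. In the first experiment, CTU2 was knocked down for 42 h with a pool of 2 siRNAs (siCTU2), and control cells received the siRNA siGL2. In the second, cells spent 18 h in glutamine-free medium (mQ) or in control medium (pQ). Cells of each of these 4 conditions received triptolide at 25 µM, a blocker of transcription, alone (T arm) or with cycloheximide at 100 µg/ml, a blocker of translation (TCHX arm), and were collected at 0, 3 and 5 h. Each of the resulting 24 groups had 3 replicates. The labels do not say whether replicates were separate cultures, so p-values measure the spread between these libraries, which may be technical.

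Mitosis is driven by CDK1 bound to cyclin B. Aurora and Polo-like kinases build the spindle, kinetochores attach chromosomes to it, and the spindle checkpoint holds back the anaphase-promoting complex until every chromosome is attached. The mRNAs of these proteins accumulate in G2 and M, largely because the DREAM complex (p130 or p107, E2F4 or E2F5, and MuvB) represses their promoters earlier in the cycle, while B-MYB and FOXM1 activate them later. Many of these promoters carry a cell cycle genes homology region (CHR), which MuvB binds, and CCAAT boxes, which NF-Y binds. CTU2 is part of the enzyme that thiolates the wobble uridine of the tRNAs for lysine, glutamate and glutamine, which read AAA, GAA and CAA codons. Glutamine is a precursor of glutamate and of nucleotides.

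Promoter sequences are given for 4 genes that moved strongly or that define the cell cycle phase: the spindle motor KIF20A, the kinase PLK1, the contractile ring protein ANLN and cyclin B1 (CCNB1). They are from RefSeq (GRCh38.p14), 250 bases before to 50 bases after the start site, on the gene's strand, with CHR letters (TTTGAA or TTCGAA) and CCAAT boxes on either strand in capitals. The 4 windows are chr5:138178862-138179161 (KIF20A, plus strand), chr16:23678639-23678938 (PLK1, plus strand), chr7:36389612-36389911 (ANLN, plus strand) and chr5:69166900-69167199 (CCNB1, plus strand).
KIF20A: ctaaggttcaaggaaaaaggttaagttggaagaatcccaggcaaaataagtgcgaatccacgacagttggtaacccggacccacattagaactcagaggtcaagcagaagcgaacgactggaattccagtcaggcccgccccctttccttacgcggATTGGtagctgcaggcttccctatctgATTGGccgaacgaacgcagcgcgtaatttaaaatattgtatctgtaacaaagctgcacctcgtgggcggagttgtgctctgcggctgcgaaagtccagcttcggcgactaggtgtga
PLK1: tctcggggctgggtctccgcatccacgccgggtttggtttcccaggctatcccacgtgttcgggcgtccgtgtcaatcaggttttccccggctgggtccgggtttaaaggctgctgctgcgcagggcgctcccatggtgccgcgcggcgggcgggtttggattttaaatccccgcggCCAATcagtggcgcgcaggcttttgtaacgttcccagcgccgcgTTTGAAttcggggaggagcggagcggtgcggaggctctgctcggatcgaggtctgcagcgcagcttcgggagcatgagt
ANLN: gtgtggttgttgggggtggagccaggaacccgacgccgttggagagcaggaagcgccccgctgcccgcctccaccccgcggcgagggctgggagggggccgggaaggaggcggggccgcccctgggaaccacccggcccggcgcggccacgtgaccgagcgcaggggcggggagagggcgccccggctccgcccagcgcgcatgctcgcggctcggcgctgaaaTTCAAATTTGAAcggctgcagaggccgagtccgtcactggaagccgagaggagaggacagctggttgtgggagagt
CCNB1: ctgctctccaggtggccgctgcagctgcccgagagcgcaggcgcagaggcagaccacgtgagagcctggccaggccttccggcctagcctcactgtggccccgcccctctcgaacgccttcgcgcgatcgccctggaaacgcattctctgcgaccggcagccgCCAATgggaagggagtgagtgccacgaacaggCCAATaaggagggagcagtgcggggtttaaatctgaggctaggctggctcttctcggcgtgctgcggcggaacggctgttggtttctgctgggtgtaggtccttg
In the PLK1 window, the CHR letters began 29 bases before the start site and the CCAAT box 73 bases before it. The ANLN window held 2 CHR matches, on opposite strands, and no CCAAT box. The KIF20A and CCNB1 windows each held 2 CCAAT boxes and neither TTTGAA nor TTCGAA. No other form of the CHR was searched for. RefSeq windows were matched for 34 of the 40 genes, with 44 windows in all. TTTGAA was found in 26 windows (59.1%), against 15.2% of 35114 promoter windows, and TTCGAA in 4 (9.09%), against 1.45%. A CCAAT box was found in 33 windows (75.0%), against 34.6% of all windows, and 18 windows (40.9%, against 10.8%) held 2 or more. CHR letters in either form together with a CCAAT box were in 24 windows (54.5%), against 6.38%. These are matches of letters, not measured binding.

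Total counts ranged from 5987692 to 15534331 per library. CTU2 itself was at 21.1, 22 and 24.2 CPM (its counts divided by the library total, on a fixed scale) in the siGL2 T arm at 0 h and at 2.95, 1.01 and 1.32 CPM in the siCTU2 T arm. The library labelled siCTU2 TCHX 5 h replicate 3 went against its label, with 10.4 CPM of CTU2 against 0.203 and 0.168 CPM in the other replicates of its group. Replicate 3 also stood apart at 5 h in general. Genes with counts numbered 20364 in mQ T 5 h replicate 3, 19940 in pQ TCHX 0 h replicate 3 and 19896 in siCTU2 TCHX 5 h replicate 3. No other library had more than 17495. Most results that use these libraries are given with and without them. The shares of mRNA left at 5 h are given only with them. For differences between mQ and pQ at 3 h, no fit left out that pQ library alone. In the 12 T arm libraries at 0 h, the melanoma markers SOX10 (226 to 424 CPM), MITF (110 to 377 CPM) and S100B (median 334 CPM) were high, while the pigment genes MLANA and TYR stayed at or below 0.866 and 1.02 CPM. The summed level of all 9 line markers, most of it from VIM (1750 to 3990 CPM), ranged from 4070 to 4370 CPM in siCTU2, 4240 to 4710 in siGL2, 2460 to 3500 in mQ and 4610 to 4940 in pQ. Of the 8 markers of other cells, CD3E, PECAM1 and KRT5 were at 0 in all 12 libraries, and the summed level of the list was at most 11.7 CPM.

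The 40 genes spanned 2 orders of magnitude in level. In siGL2 at 0 h (T arm), their mean level ran from 11.8 CPM for CDC25C, a phosphatase that activates CDK1, to 1260 CPM for TOP2A, the topoisomerase that untangles sister chromatids, with a median of 85.9 CPM. The 3′ tag counts 1 end per mRNA, so these levels need no division by length. Summed over the 40 genes, the level was 5716 CPM ± 391 (SD, n = 3) in siGL2, 7035 ± 781 in siCTU2, 7073 ± 167 in pQ and 5913 ± 803 in mQ. The siCTU2 libraries (6658, 7933 and 6514 CPM) all lay above the siGL2 libraries (5399, 6154 and 5596 CPM). The mQ libraries (5469, 6840 and 5431 CPM) all lay below the pQ libraries (7041, 7254 and 6924 CPM). Replicate 2 had the highest sum in each of these groups.

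The first comparison asked how mRNA levels differed when CTU2 was knocked down. Most mitotic genes were higher in siCTU2 than in siGL2 at 0 h: 27 of the 40 rose and 2 fell at an adjusted p under 0.05 (edgeR, T arm), while 17.8% of the 12292 genes tested rose and 18.2% fell. The median log2 fold change was 0.40 over the 40 genes and 0.00 over all genes tested. By role, 8 of 9 kinesins and spindle genes, 5 of 7 mitotic kinases and their activator, 5 of 7 genes of cyclins, CDK1 and its phosphatases, 3 of 6 kinetochore genes, both cytokinesis genes and both chromosome and proliferation genes rose. Of the 7 line markers tested, MITF, the melanocyte transcription factor, was lower in siCTU2 (−1.48 ± 0.11, adjusted p = 7.24e-09), and AXL (0.95 ± 0.16) and NGFR (1.14 ± 0.36) were higher. Their part in these results was not tested. In cells measured in bulk, a larger share of cells in G2 or M and more of these mRNAs per cell cannot be told apart.

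KIF20A, a kinesin that carries regulators to the central spindle for cytokinesis, had the largest rise. It was at 36.5, 51.8 and 37 CPM in the siGL2 libraries and at 96.7, 108 and 87 CPM in the siCTU2 libraries. The groups did not overlap, and the log2 fold change was 1.21 ± 0.13 (SE; 2.31-fold, adjusted p = 5.66e-07). In the TCHX arm, whose 0 h libraries are separate, the change was 1.00 ± 0.12. Other motors and spindle proteins rose less. PRC1, which bundles microtubules in the anaphase midzone, rose from 144, 165 and 148 CPM to 221, 260 and 209 CPM (log2 fold change 0.59 ± 0.09, adjusted p = 3.78e-05). DLGAP5, which stabilises kinetochore fibres, rose by 0.61 ± 0.16 on the log2 scale (adjusted p = 0.0048). KIF11, the motor that pushes spindle poles apart, was the 1 gene of this role that did not pass (−0.07 ± 0.16, adjusted p = 0.768).

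Among the mitotic kinases, NEK2, which separates centrosomes, was at 24.7, 35.8 and 25.2 CPM in siGL2 and at 48.3, 54.2 and 47.4 CPM in siCTU2. Its groups did not overlap, and it rose by 0.80 ± 0.14 on the log2 scale (adjusted p = 0.000169). PLK1, which acts at centrosomes, kinetochores and the midbody, went from 126, 154 and 124 CPM to 203, 247 and 189 CPM (0.66 ± 0.10, adjusted p = 5.36e-05). The checkpoint kinase BUB1 rose from 34.2, 40.7 and 40.6 CPM to 56, 63.1 and 60.7 CPM (0.64 ± 0.11, adjusted p = 0.000149). In each of these 3 genes every siCTU2 library was above every siGL2 library. AURKA, the centrosomal Aurora kinase, rose by 0.51 ± 0.10 (adjusted p = 0.000557), and TPX2, its activator, by 0.31 ± 0.09 (adjusted p = 0.012). AURKB, the Aurora kinase of the chromosomal passenger complex, did not pass (0.17 ± 0.11, adjusted p = 0.256), nor did TTK, the kinase that starts checkpoint signalling (0.38 ± 0.15, adjusted p = 0.0563). In the TCHX arm, AURKB was called higher (0.36 ± 0.09, adjusted p = 0.00373) and TTK was not (0.27 ± 0.13, adjusted p = 0.107).

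The cyclins did not move together. CCNB2 (cyclin B2) rose from 76, 94 and 80.5 CPM to 108, 143 and 120 CPM (log2 fold change 0.56 ± 0.11, adjusted p = 0.000375). CCNB1 (cyclin B1) was at 154, 194 and 146 CPM in siGL2 and at 129, 183 and 135 CPM in siCTU2, with overlapping groups (−0.15 ± 0.12, adjusted p = 0.365). CDK1, the kinase both bind, rose from 92.4, 98.2 and 79.9 CPM to 128, 145 and 122 CPM (0.54 ± 0.09, adjusted p = 0.000187). The phosphatases that activate CDK1 parted in sign. CDC25B was at 175, 152 and 189 CPM in siGL2 and at 114, 131 and 118 CPM in siCTU2, without overlap, and fell by 0.51 on the log2 scale (SE 0.09, adjusted p = 0.000196). CDC25C rose by 0.52 ± 0.19 (adjusted p = 0.0421). The other gene that fell was BUB3, a checkpoint protein that brings BUB1 to kinetochores (−0.22 ± 0.08, adjusted p = 0.0477). Its call was lost in the TCHX arm (−0.21 ± 0.09, adjusted p = 0.0654).

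ANLN (anillin), the scaffold of the contractile ring, rose from 110, 124 and 97.8 CPM to 203, 198 and 161 CPM (0.75 ± 0.10, adjusted p = 1.07e-05), and ECT2, which activates RhoA at the division plane, rose by 0.56 ± 0.11 (adjusted p = 0.00048). Both cytokinesis genes were higher in every siCTU2 library. The proliferation marker MKI67 rose by 0.48 ± 0.08 (adjusted p = 0.000128) and TOP2A by 0.33 ± 0.08 (adjusted p = 0.00297). Among kinetochore and centromere genes, 3 of 6 rose: CENPE (0.48 ± 0.09), CENPA (0.47 ± 0.15) and NDC80 (0.37 ± 0.11). Of these, CENPA, the centromeric histone H3 variant, was not higher in the TCHX arm, where its change was −0.17 ± 0.19 (adjusted p = 0.498). Of the 7 checkpoint and anaphase genes, 2 rose, BUB1B and securin (PTTG1), and 1 fell, BUB3, with a median of 0.08.

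The count was similar in other libraries: the TCHX arm at 0 h gave 27 genes higher and 1 lower, against 18.3% and 18.9% of all genes tested. The genes called higher differed in part: CENPA, KIF2C and CKS2 lost the call there, and AURKB, CDC20 and CENPF gained it. Without overlap between its 3 libraries and the 3 control libraries, siCTU2 was above siGL2 for 23 genes in the T arm (23.8% of all genes tested), and 22 of these were also above in the TCHX arm (15.6% of all genes tested were above in both).

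**Figure D1:**
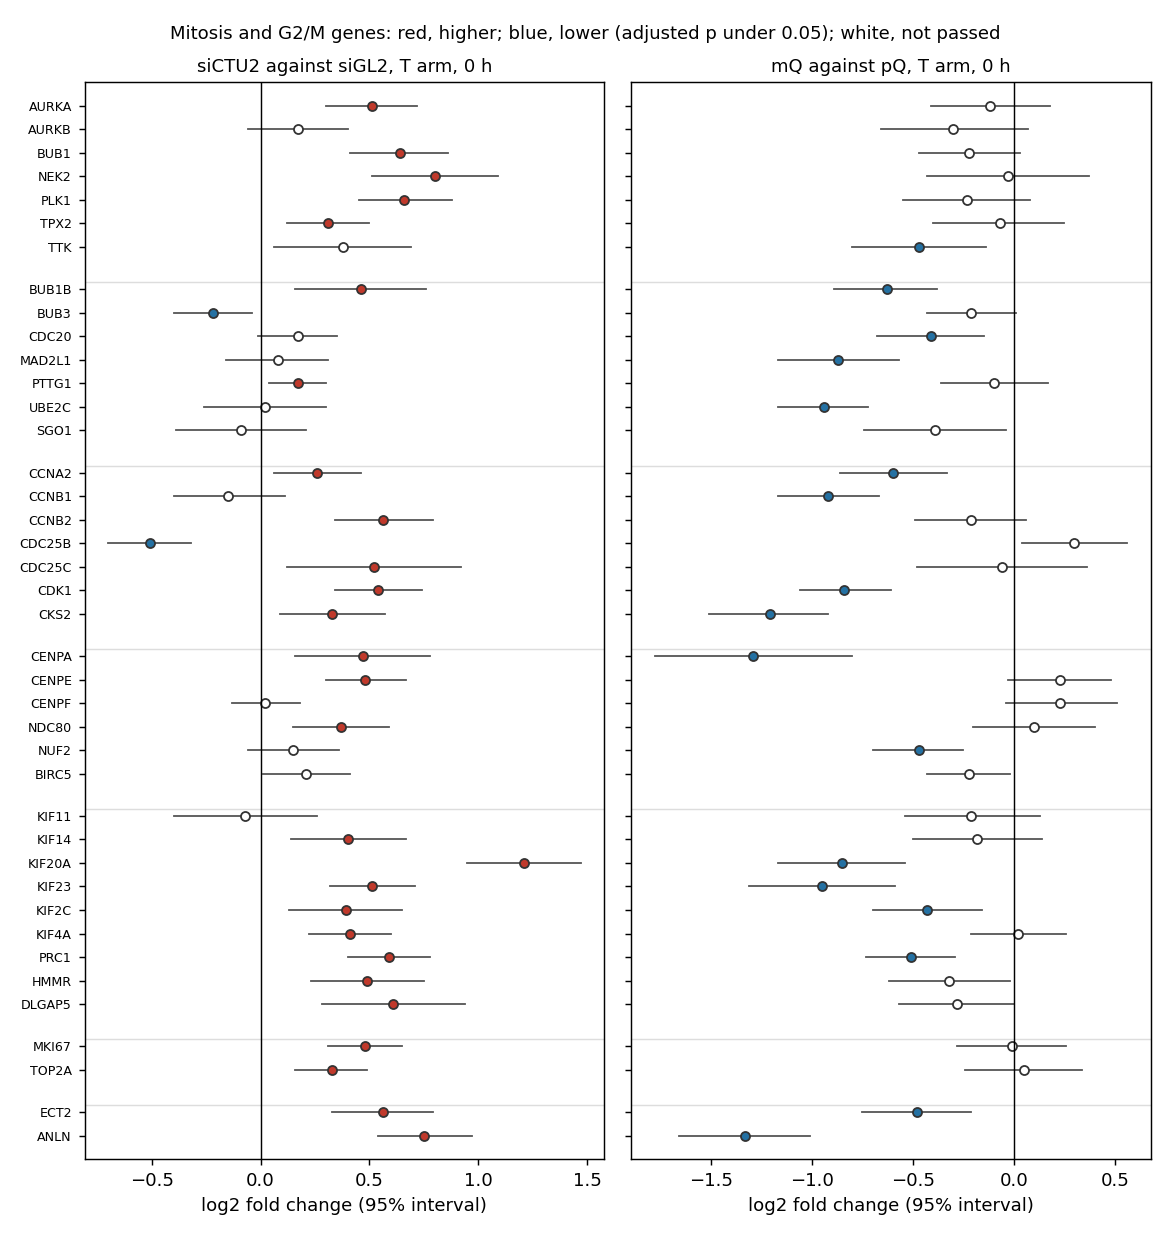
The log2 fold change at 0 h in the T arm of each of the 40 genes, grouped by role, is shown for siCTU2 against siGL2 (left) and mQ against pQ (right), with 95% intervals from the edgeR fit (n = 3 per group). On the left 27 genes are higher (red) and 2 lower (blue). On the right none is called higher and 17 are lower.

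The second comparison asked the same of cells without glutamine. Here the mitotic genes that changed all fell: 17 of the 40 were lower in mQ than in pQ and 0 were higher (edgeR, T arm), while 12.5% of the 12374 genes tested rose and 12.4% fell. DESeq2 also called 17 lower (12.9% of all genes tested) and 0 higher. At an unadjusted p under 0.05 there were 22 genes (37.8% of all genes tested, in either direction), of which CDC25B was the 1 that was higher (unadjusted p = 0.0275). The median log2 fold change was −0.29 over the 40 genes and 0.01 over all genes tested. By role, 4 of 7 cyclin and CDK1 genes, 4 of 7 checkpoint and anaphase genes, 4 of 9 kinesins and spindle genes and both cytokinesis genes fell. Of the 7 mitotic kinases and their activator 1 fell, TTK (−0.47 ± 0.15, adjusted p = 0.0394). In the TCHX arm at 0 h with pQ replicate 3 left out, other genes of this role were called lower, AURKB (−0.51 ± 0.10, adjusted p = 0.00104), AURKA and TPX2 (−0.28 ± 0.10, adjusted p = 0.0413), and TTK was not (adjusted p = 0.132). Of the 7 line markers tested, VIM (−0.69 ± 0.14) and MITF (−1.16 ± 0.14) were lower in mQ, 0 were higher and the median was −0.07. Their part in these results was not tested.

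ANLN had the largest fall. It was at 133, 147 and 107 CPM in pQ and at 55.9, 40.1 and 52 CPM in mQ, with no overlap (log2 fold change −1.33 ± 0.15, adjusted p = 0.00015). CENPA was at 32.4, 37.4 and 30.5 CPM in pQ and at 10.6, 10.1 and 18.9 CPM in mQ (−1.29 ± 0.23, adjusted p = 0.00228). CKS2, a small protein that binds CDK1, went from 107, 97.9 and 75.7 CPM to 39.6, 39.5 and 37.2 CPM (−1.21 ± 0.14, adjusted p = 0.00015). In all 3 genes the mQ libraries were at less than the lowest pQ library. The falls were smaller in the TCHX arm. There ANLN was at −0.66 ± 0.19 (adjusted p = 0.0649) and CKS2 at −0.54 ± 0.19 (adjusted p = 0.126), with no call. With pQ replicate 3 left out, both were called, at −0.86 ± 0.11 (adjusted p = 5.81e-06) and −0.75 ± 0.12 (adjusted p = 6.77e-05). CENPA again differed between arms: in the TCHX arm its change was −0.08 ± 0.33 (adjusted p = 0.918), and −0.42 ± 0.17 (adjusted p = 0.0862) with pQ replicate 3 left out.

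Cyclin B1 and CDK1 fell together. CCNB1 went from 232, 271 and 216 CPM to 115, 123 and 128 CPM (−0.92 ± 0.11, adjusted p = 0.000264), and CDK1 from 170, 171 and 152 CPM to 87.5, 85.8 and 93.1 CPM (−0.84 ± 0.10, adjusted p = 0.00027). Neither gene's groups overlapped. UBE2C, the ubiquitin-conjugating enzyme that works with the anaphase-promoting complex, fell from 245, 230 and 213 CPM to 116, 120 and 108 CPM (−0.94 ± 0.10, adjusted p = 0.000124). MAD2L1, the checkpoint protein that holds CDC20, fell by 0.87 (SE 0.14, adjusted p = 0.0012). Of the kinesins, KIF23, which with its partner bundles the central spindle, fell by 0.95 (SE 0.17, adjusted p = 0.00234) and KIF20A by 0.85 (SE 0.15, adjusted p = 0.00205). In the TCHX arm, KIF23 was called lower (−0.55 ± 0.12, adjusted p = 0.0248). CCNB1 (−0.56 ± 0.17), CDK1 (−0.45 ± 0.14), UBE2C (−0.62 ± 0.16), MAD2L1 (−0.49 ± 0.15) and KIF20A (−0.24 ± 0.21) were not called there. With pQ replicate 3 left out of that arm, all of these genes were called lower.

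Other mitotic genes showed no call. PLK1 was at 193, 225 and 211 CPM in pQ and at 135, 207 and 173 CPM in mQ, with overlapping groups (−0.23 ± 0.15, adjusted p = 0.268). AURKA (−0.12 ± 0.13, adjusted p = 0.561), MKI67 (−0.01 ± 0.12, adjusted p = 0.963) and TOP2A (0.05 ± 0.13, adjusted p = 0.819) were close to 0 in the T arm. In the TCHX arm with pQ replicate 3 left out, all 3 were called lower, AURKA at −0.35 ± 0.11 (adjusted p = 0.0206), MKI67 at −0.33 ± 0.10 (adjusted p = 0.0217) and TOP2A at −0.32 ± 0.10 (adjusted p = 0.0221). TOP2A was at 1400, 1450 and 1510 CPM in pQ and at 1270, 1810 and 1260 CPM in mQ. Its mQ replicate 2 was the highest of the 6 libraries and the other mQ replicates the lowest. With all TCHX libraries TOP2A was at −0.35, with no call. CDC25B, which had fallen in siCTU2, had the highest value of the 40 genes here (0.30 ± 0.12, adjusted p = 0.0866).

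The number of genes called depended on the libraries. Without mQ replicate 2 in the T arm, 27 genes were lower (13.3% of all genes tested). In that fit pQ replicate 2 was kept, though replicate 2 had the highest summed level of the 40 genes in both groups. The TCHX arm at 0 h gave only 4 lower (2.65% of all genes tested were lower and 3.82% higher), and 20 lower (9.71%, with 10.4% higher) when its pQ replicate 3 was left out. In none of the settings run was one of the 40 genes called higher in mQ. The mQ libraries lay below the pQ libraries without overlap for 22 genes in the T arm (24.8% of all genes tested), and for 12 of these in the TCHX arm as well (8.07% in both).

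**Figure D2:**
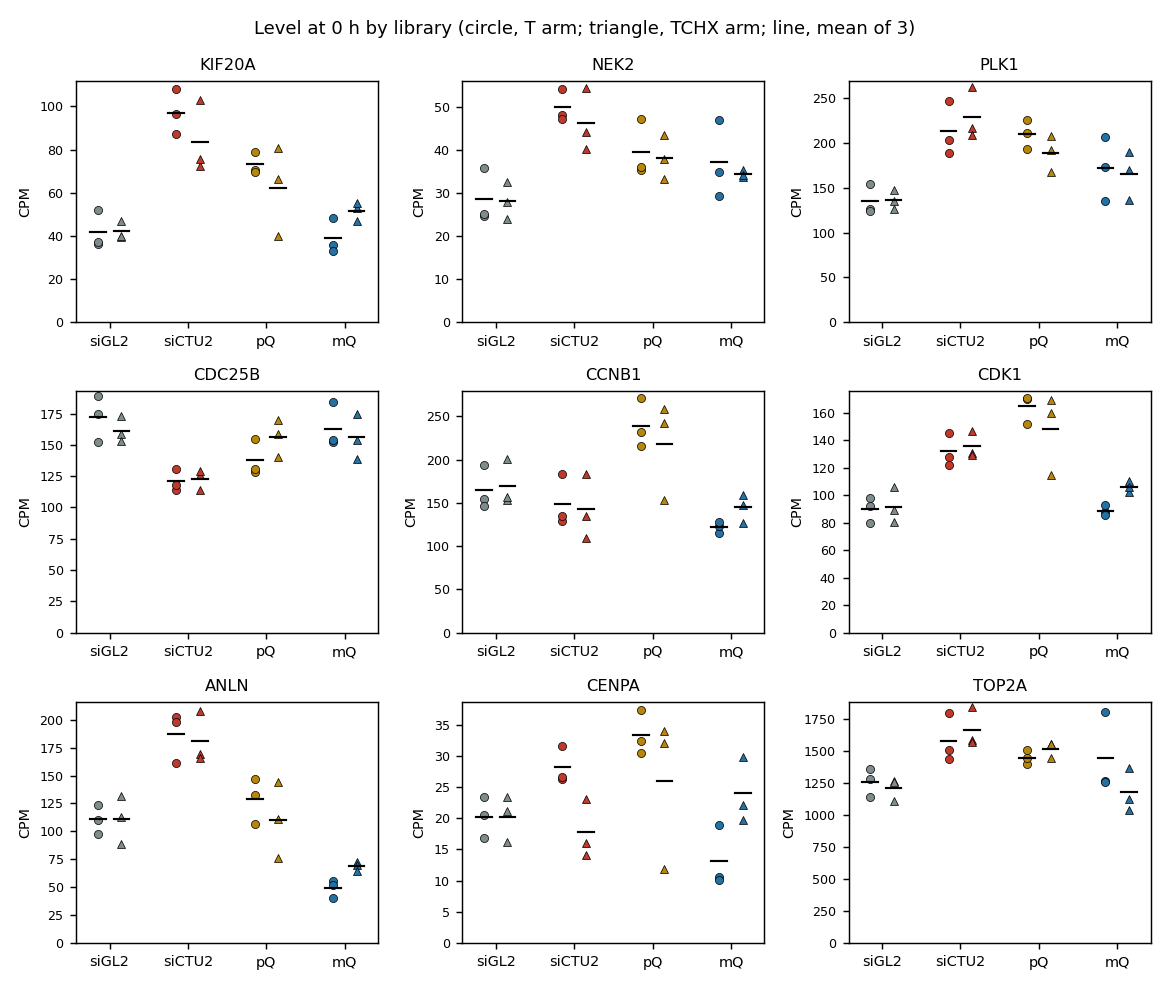
CPM of 9 genes in each library at 0 h, with the T arm as circles, the TCHX arm as triangles and lines at the means (n = 3). KIF20A, NEK2 and PLK1 are higher in siCTU2 than in siGL2, CDC25B is lower, and CCNB1, CDK1, ANLN and CENPA are lower in mQ than in pQ in the T arm, where the mean of TOP2A is the same to 3 digits (1450 CPM).

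The 2 experiments had separate control libraries. Of the 27 genes that rose in siCTU2 and the 17 that fell in mQ, 11 were in both sets, which is 40.7% of the first and 64.7% of the second. Over the 11968 genes tested in both experiments, 343 (2.87%) were higher in siCTU2 and lower in mQ, which is 16.1% of those higher and 22.5% of those lower. With 27 of the 40 genes higher in siCTU2 and 17 lower in mQ, about 11 are shared even with no gene-by-gene link. The overlap therefore shows no such link beyond those 2 counts. By the T arm, the 11 genes were ANLN, BUB1B, CCNA2, CDK1, CENPA, CKS2, ECT2, KIF20A, KIF23, KIF2C and PRC1. In the TCHX arm, CKS2 (0.15 ± 0.14), KIF2C (0.30 ± 0.14) and CENPA (−0.17 ± 0.19) were not called higher in siCTU2. With all TCHX libraries, only KIF23 and PRC1 of the 11 were called lower in mQ. With pQ replicate 3 left out, all of the 11 but CENPA and KIF2C were. In the T arm, another 6 fell in mQ with no rise in siCTU2, among them CCNB1, UBE2C, MAD2L1 and CDC20, the activator of the anaphase-promoting complex. Another 16 rose in siCTU2 with no call in mQ in the T arm, among them PLK1 and NEK2, and AURKA, MKI67 and TOP2A, which were called lower in the other arm as given above.

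Further genes of the same phase were read from a list of 69 other G2/M genes, of which 63 were tested in each experiment. Over all genes tested, 4429 of 12292 were called in siCTU2 and 3071 of 12374 in mQ, in either direction. In siCTU2, 31 of these 63 rose and 4 fell, with a median of 0.30. The largest rises were CDCA3 (0.90 ± 0.11), WEE1, the kinase that inhibits CDK1 (0.89 ± 0.14), and NUSAP1, a microtubule-binding spindle protein (0.76 ± 0.09). The largest falls were CENPI (−0.91 ± 0.19), CENPK (−0.72 ± 0.14) and PBK (−0.68 ± 0.10). In mQ, 28 fell and 0 rose, with a median of −0.40, led by PLK4, the kinase of centriole duplication (−1.55 ± 0.28), BORA, an activator of Aurora A (−1.36 ± 0.30), and FAM83D (−1.35 ± 0.18). WEE1 rose in siCTU2 (19.1, 23.4 and 22.7 CPM in siGL2 against 40.9, 45.3 and 35.1) and fell in mQ (20.8, 24.3 and 17.1 CPM in pQ against 11.8, 11.9 and 11.7).

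The regulators of G2/M transcription were mixed. In siCTU2, 6 of 17 rose and 3 fell, and 3 of 17 were called in mQ. Over all genes tested, 4429 of 12292 were called in siCTU2 and 3071 of 12374 in mQ, in either direction. CDKN1A (p21), the CDK inhibitor induced by p53, was at 47.7, 40.8 and 54 CPM in siGL2 and at 256, 273 and 273 CPM in siCTU2. Its rise of 2.49 ± 0.10 on the log2 scale (adjusted p = 1.12e-12) was the largest in this list, and it stood beside higher, not lower, levels of the 27 mitotic genes. E2F5 (1.39 ± 0.48) and the NF-Y subunit NFYB (0.95 ± 0.12) followed. The falls were LIN54 (−0.99 ± 0.22), the MuvB subunit that binds the CHR, NFYC (−0.31 ± 0.09) and RBBP4 (−0.27 ± 0.08). FOXM1 rose in siCTU2 (0.29 ± 0.09, adjusted p = 0.0153) and fell in mQ (−0.45 ± 0.12, adjusted p = 0.0208). In mQ, CDKN1A rose by 0.60 ± 0.18 and TFDP1, the partner of E2F proteins, fell by 0.99 (SE 0.10), the other 2 of the 3 calls among 17.

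Genes of G1/S and replication also fell in mQ and were mixed in siCTU2. Over all genes tested, 3071 of 12374 were called in mQ and 4429 of 12292 in siCTU2, in either direction. In mQ, 13 of 27 fell and 1 rose, with a median of −0.41. The largest falls were the sliding clamp PCNA (−1.25 ± 0.14), the histone mRNA binding protein SLBP (−1.20 ± 0.24) and thymidylate synthase, TYMS (−0.99 ± 0.12), and the rise was CDT1 (0.52 ± 0.12). In siCTU2, 7 of 27 rose and 5 fell, with a median of 0.08, from GINS1 (−2.07 ± 0.15) to CCNE2 (1.13 ± 0.20). Subunits of the anaphase-promoting complex were called about as often as all genes tested in siCTU2, and showed few calls in mQ. In siCTU2, 2 of 14 rose (ANAPC13, 0.63 ± 0.09, and ANAPC11, 0.28 ± 0.07) and 3 fell (ANAPC15, −0.47 ± 0.14, ANAPC4, −0.45 ± 0.14, and ANAPC5, −0.23 ± 0.08). In mQ, 1 of 15 rose (ANAPC16, 0.45 ± 0.12) and 1 fell (CDC23, −0.64 ± 0.15).

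The time course asked how fast the mRNAs were lost once transcription was blocked. On a scale set by stable genes, nearly all mitotic mRNAs fell in 3 h of triptolide, at about the pace of all other mRNAs. In siGL2, 36 of the 40 fell, and 57.2% of all genes tested. In siCTU2 it was 38 (67.1%), in pQ 40 (72%) and in mQ 37 (69.6%), and 0 rose in any condition by edgeR or DESeq2, while 1.13%, 1.36%, 0.963% and 1.08% of all genes tested rose (edgeR). The values of all 40 genes were below 0 in each condition. The median log2 change of the 40 genes was −0.57 in siGL2 (−0.47 over all genes tested), −0.49 in siCTU2 (−0.55), −0.76 in pQ (−0.70) and −0.82 in mQ (−0.72). With library totals scaled by TMM instead, which sets the middle of all genes near 0, the same medians were −0.08, 0.08, −0.04 and −0.11, and 0 to 2 genes rose and 1 to 6 fell. On that scale 8.38%, 12.4%, 6.59% and 9.75% of all genes tested rose in siGL2, siCTU2, pQ and mQ, and 14.5%, 16.2%, 12.1% and 17.6% fell.

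The 40 genes differed among themselves in the share of mRNA left. TOP2A was among the faster in every condition: 55.2% ± 3.31 (SD, n = 3) of its 0 h level was left at 3 h in siGL2, 54.8% ± 6.84 in siCTU2, 55.6% ± 5.01 in pQ and 45.4% ± 3.81 in mQ. CCNB1 kept more, with 72.4% ± 2.82, 73.1% ± 4.06, 61.6% ± 10.2 and 63.2% ± 17.2 left in the same order. CDK1 kept 60.7% ± 6.63, 58.6% ± 4.12, 53.7% ± 2.78 and 61.9% ± 9.76. The median gene of all those tested kept 71.3%, 67.8%, 61.4% and 60.1%. TOP2A was thus below the median gene in all 4 conditions. CCNB1 was above it in siCTU2 by more than its SD, and within its SD of it in siGL2, pQ and mQ.

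The genes with the largest falls were listed for each condition. In siGL2 the largest falls were CKS2 (log2 change −0.99 ± 0.18, adjusted p = 0.000144), NDC80, part of the complex that grips microtubules at the kinetochore (−0.95 ± 0.16), TOP2A (−0.85 ± 0.11) and KIF2C, a microtubule depolymerase (−0.79 ± 0.16). In siCTU2 they were CENPA (−1.39 ± 0.20, adjusted p = 4.26e-06), SGO1, the protector of centromeric cohesion (−0.93 ± 0.16), TOP2A (−0.86 ± 0.13) and CDK1 (−0.77 ± 0.13). In pQ they were CENPA (−1.42 ± 0.39, adjusted p = 0.00524), KIF23 (−1.13 ± 0.18), CCNA2 (cyclin A2, −1.07 ± 0.18) and AURKA (−1.04 ± 0.13). In mQ they were CENPE (−1.48 ± 0.13, adjusted p = 1.24e-08), AURKA (−1.45 ± 0.18), MKI67 (−1.29 ± 0.14) and TOP2A (−1.16 ± 0.18). The remaining genes of the 8 largest falls lay between −0.78 and −0.75 in siGL2, −0.73 and −0.63 in siCTU2, −0.95 and −0.91 in pQ and −1.14 and −1.06 in mQ. PLK1 fell by 0.54, 0.39, 0.67 and 0.94 on the log2 scale in siGL2, siCTU2, pQ and mQ, AURKA by 0.69, 0.57, 1.04 and 1.45, and MKI67 by 0.77, 0.61, 0.74 and 1.29. Without replicate 1, the calls dropped from 38 to 17 in siCTU2 (46.3% of all genes tested) and from 40 to 24 in pQ (44.6%).

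At 5 h, 24 genes had fallen in siGL2 (41.5% of all genes tested), 27 in siCTU2 (56.3%), 29 in pQ (47%) and 19 in mQ (33.9%). With replicate 3 left out of the fit, the counts were 34 (53.5%), 29 (49.8%), 39 (59.9%) and 34 (55.5%). TOP2A had 53.9% ± 10.3 left in siGL2, 47.9% ± 3.94 in siCTU2, 61.9% ± 11.2 in pQ and 49.4% ± 25.5 in mQ. The SD in mQ was several times that at 3 h, and the 5 h values are less firm for that reason.

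**Figure D3:**
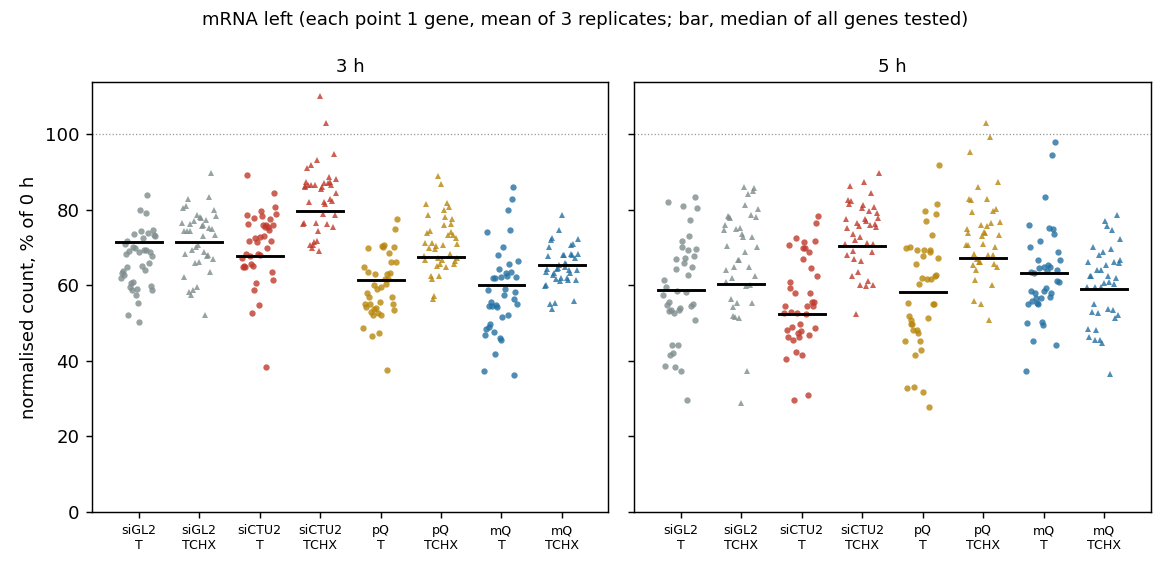
Stable-gene normalised count at 3 h (left) and 5 h (right) as a percentage of the 0 h count of the same replicate and arm, for each of the 40 genes (points, means of n = 3) and for the median of all genes tested (bars). The 40 genes scatter around the bar in each column. In siCTU2 at 3 h the bar is at 67.8% in the T arm and 79.5% in the TCHX arm.

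No decay difference between conditions was detected at 3 h for any of the 40 genes. For siCTU2 minus siGL2, 0 genes passed (edgeR on 24 libraries), 2 had an unadjusted p under 0.05 and DESeq2 called 0, while 0.21% of all genes tested were called higher and 0.709% lower. For CDK1 the difference in log2 change was −0.05 with a 95% interval of −0.48 to 0.37, and for CCNB1 0.01 (−0.56 to 0.59). PLK1 (0.15, −0.30 to 0.60), AURKA (0.11, −0.32 to 0.55), MKI67 (0.15, −0.18 to 0.49) and TOP2A (0.00, −0.38 to 0.37) also had intervals that span 0. The 2 genes with an unadjusted p under 0.05 were CENPA (−0.79, −1.53 to −0.06, adjusted p = 0.58) and NDC80 (0.46, 0.03 to 0.90, adjusted p = 0.59). Over the 40 genes the intervals reached from −1.53 to 0.93.

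For mQ minus pQ, 0 genes passed (edgeR), 3 had an unadjusted p under 0.05 and DESeq2 called 0, while 0.00731% of all genes tested were called higher and 0.102% lower. CENPE (−0.61, 95% interval −0.96 to −0.27, adjusted p = 0.204), MKI67 (−0.55, −0.90 to −0.20, adjusted p = 0.296) and CENPF (−0.48, −0.86 to −0.10, adjusted p = 0.431) had intervals below 0 before adjustment and are named here after their values were seen. The core genes CCNB1 (0.00), CDK1 (0.19), PLK1 (−0.28), AURKA (−0.41) and TOP2A (−0.31) had intervals that span 0. At 5 h with replicate 3 left out, 4 genes were called lower, MKI67 (−0.93 ± 0.22, adjusted p = 0.0199), CENPE (−0.86 ± 0.20, adjusted p = 0.0202), AURKA (−0.94 ± 0.26, adjusted p = 0.0436) and CENPF (−0.77 ± 0.22, adjusted p = 0.0477), against 1.82% of all genes tested. With replicate 3 in the fit 0 were called at 5 h.

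The TCHX arm asked whether blocking translation left more mRNA after the transcription block. A few mitotic genes were higher in the TCHX arm than in the T arm at 3 h, and none was lower: 2 in siGL2, 4 in siCTU2, 1 in pQ and 10 in mQ, against 8.45%, 14.5%, 5.42% and 16% of all genes tested. The median log2 difference of the 40 genes was 0.11 in siGL2 (0.04 over all genes tested), 0.17 in siCTU2 (0.13), 0.10 in pQ (0.05) and 0.29 in mQ (0.16). With the replicate number as a block, 12 genes were called in siCTU2 (19.1% of all genes tested), 3 in pQ (8.27%) and 13 in mQ (18.5%), where same-numbered libraries deviated together. In siGL2, where they did not in every pair, the block gave 11 genes. Over all genes tested, 1919 of 12845 were then called in siGL2, in either direction. DESeq2 called 3, 4, 2 and 10 higher in siGL2, siCTU2, pQ and mQ and 0 lower, with 9.63%, 15.7%, 6.81% and 17% of all genes tested higher. With 1 replicate number left out, 0 to 3 genes were called in siGL2, 0 to 5 in siCTU2, 0 to 3 in pQ and 2 to 6 in mQ. Of the 12859 to 13377 genes tested in these fits, 526 to 891 were called in siGL2, 846 to 1613 in siCTU2, 163 to 758 in pQ and 1070 to 1710 in mQ, in either direction. Without the TCHX 0 h replicate 3 library 2 of the 40 were called in pQ, and 986 of 13334 genes tested. Across conditions, 12 of the 40 genes passed at least once (22.4% of all genes tested), 2 in 2 conditions (4.93%) and 1 in all 4 (4.05%).

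That 1 gene was CENPE, a large kinesin that carries chromosomes along microtubules to the metaphase plate. In siGL2 its mRNA left at 3 h was 53.3%, 64.3% and 61.3% in the T arm and 91.9%, 85.8% and 91.1% in the TCHX arm. In siCTU2 it was 62%, 65% and 63.3% against 82.6%, 78% and 86.8%. In pQ it was 58.6%, 55.2% and 51.2% against 72.8%, 74.5% and 72.3%, and in mQ 40.9%, 28.6% and 39.4% against 61.4%, 54.8% and 51.6%. In each of the 4 conditions every TCHX library kept more CENPE mRNA than every T library. The log2 difference at 3 h was 0.50 ± 0.11 in siGL2 (adjusted p = 0.00389), 0.50 ± 0.11 in siCTU2 (adjusted p = 0.0018), 0.43 ± 0.12 in pQ (adjusted p = 0.0436) and 0.39 ± 0.13 in mQ (adjusted p = 0.0434). Its value stayed above 0 under every alternative run. The call was lost in every condition without replicate 1 (adjusted p = 0.197, 0.0847, 0.377 and 0.23 in siGL2, siCTU2, pQ and mQ), and in pQ and mQ also without replicate 2 (0.359 and 0.332), with TMM (0.0919 and 0.219), without the filter on low counts (0.104 and 0.0657) and at 5 h (0.688 and 0.708). In siCTU2 and pQ it was lost with the 0 h difference subtracted (0.122 and 0.293), with stable genes at both times (0.217 and 0.309) and at 5 h with replicate 3 left out (0.0547 and 0.168).

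The 2 genes that passed in 2 conditions were CENPF, a large kinetochore protein, and CKS2. CENPF was higher by 0.33 ± 0.08 in siGL2 (adjusted p = 0.0132) and by 0.33 ± 0.09 in siCTU2 (adjusted p = 0.0161), with 0.10 ± 0.10 in pQ and 0.16 ± 0.15 in mQ. CKS2 was higher by 0.44 ± 0.14 in siCTU2 (adjusted p = 0.0341) and by 0.94 ± 0.15 in mQ (adjusted p = 8.34e-05), the largest value among those called, with 0.46 ± 0.18 in siGL2 and 0.40 ± 0.25 in pQ. CENPA passed in siCTU2 alone (0.69 ± 0.20, adjusted p = 0.0196) and had a value of the other sign in siGL2 (−0.34 ± 0.26, adjusted p = 0.553). In siCTU2, CENPA was lower in the TCHX arm than in the T arm at 0 h (14.1, 23.1 and 16 against 26.3, 31.7 and 26.7 CPM). Its share of mRNA left at 3 h was 103% ± 4.12 in the TCHX arm and 38.2% ± 4.35 in the T arm.

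In mQ, besides CKS2 and CENPE, the checkpoint protein BUB1B (0.69 ± 0.13, adjusted p = 0.000436), SGO1 (0.67 ± 0.19), CCNA2 (0.63 ± 0.15), AURKA (0.56 ± 0.17), TTK (0.56 ± 0.19), KIF2C (0.51 ± 0.17), DLGAP5 (0.50 ± 0.16) and UBE2C (0.42 ± 0.13) were higher with cycloheximide. When the difference between arms at 0 h was subtracted, 1 gene was called in mQ (7.42% of all genes tested), 1 in siGL2 (3.83%), 2 in siCTU2 (11.6%) and 0 in pQ (2.67%). Several core genes had small values: CCNB1 differed by 0.09, 0.00, 0.09 and 0.36 in siGL2, siCTU2, pQ and mQ, CDK1 by 0.00, 0.25, 0.09 and 0.30, and PLK1 by 0.21, 0.03, −0.01 and 0.27. TOP2A (0.33, 0.33, 0.23 and 0.21) and MKI67 (0.26, 0.33, 0.10 and 0.27) were above 0 in all 4 conditions, with no call. At 5 h, 1 gene passed in siGL2 (7.5% of all genes tested), 3 in siCTU2 (14.4%), 1 in pQ (8.14%) and 0 in mQ (0.023%). With replicate 3 left out, 15 were higher and 1 lower in siGL2 (14.1% higher and 1.71% lower over all genes tested), 0 passed in siCTU2 (9.54%), 7 in pQ (13.7%) and 12 in mQ (17.9%).

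The cycloheximide effect itself was compared between conditions. For siCTU2 minus siGL2, 0 of the 40 genes passed (edgeR), 1 had an unadjusted p under 0.05 and DESeq2 called 0, while 0.137% of all genes tested were called higher and 0.0506% lower. CENPE differed by 0.00 (95% interval −0.31 to 0.31). CENPA, the gene farthest from 0, differed by 1.03 (0.29 to 1.77, adjusted p = 0.418). For mQ minus pQ, 0 passed and 0 had an unadjusted p under 0.05 (edgeR), and DESeq2 called 0, while 0.0658% of all genes tested were called higher and 0% lower. CKS2 differed by 0.54 (−0.09 to 1.16), SGO1 by 0.49 (−0.04 to 1.02) and CCNA2 by 0.48 (−0.02 to 0.98), all with intervals that include 0. The larger number of calls in mQ than in pQ is therefore not shown to be a difference between the conditions.

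**Figure D4:**
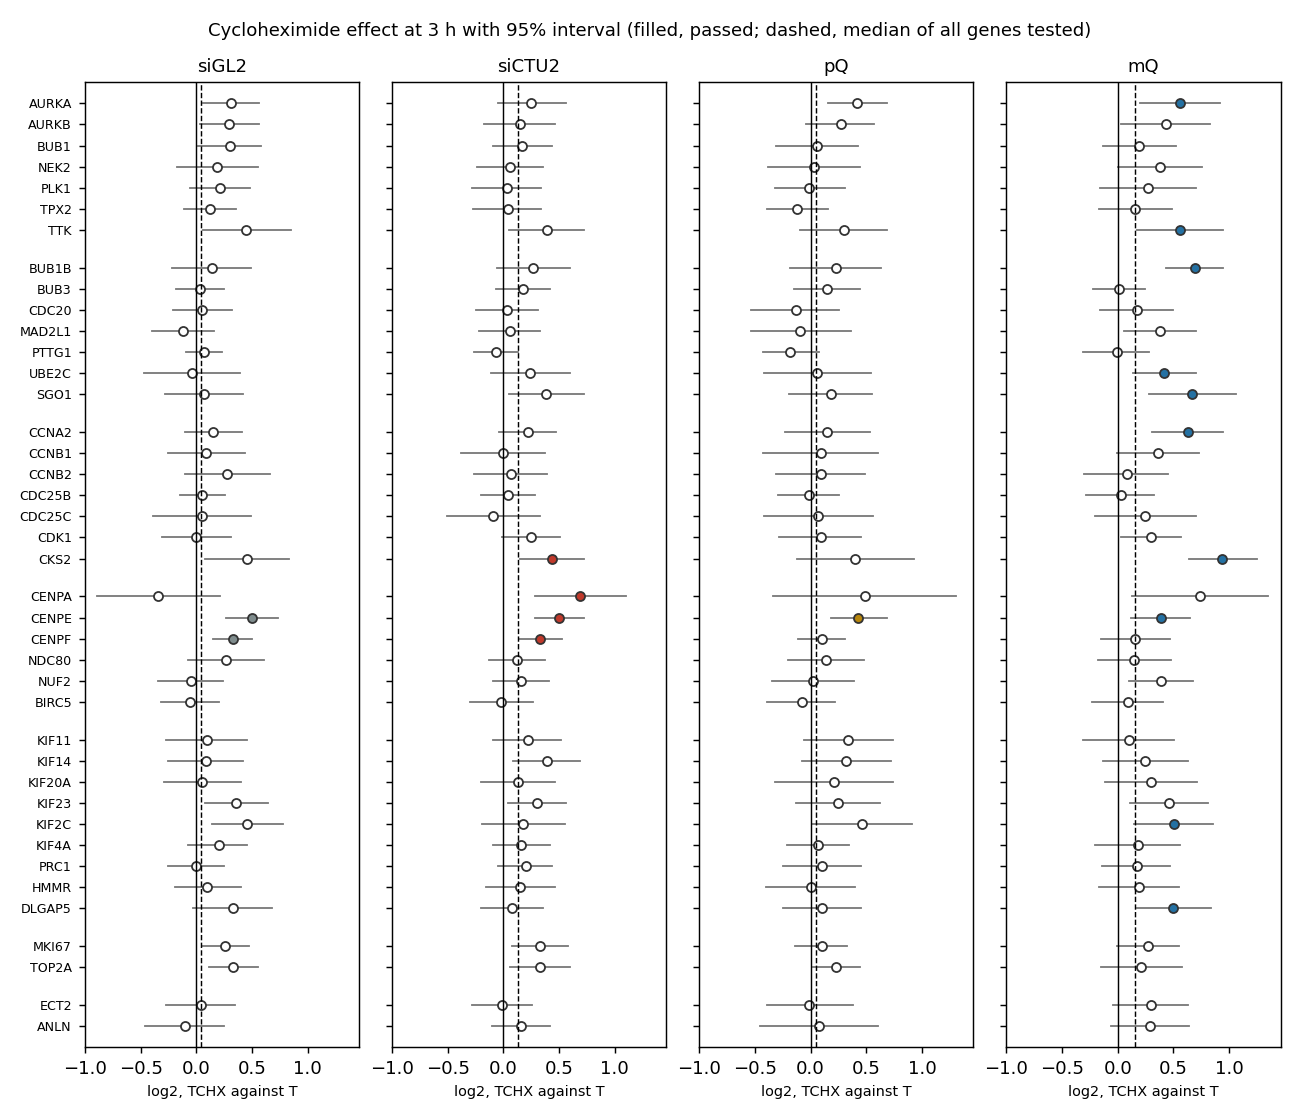
The log2 difference at 3 h between the TCHX and T arms of each of the 40 genes, by role and condition, with 95% intervals (n = 3 per arm). Filled points passed (2 in siGL2, 4 in siCTU2, 1 in pQ and 10 in mQ), the dashed line is the median of all genes tested, and CENPE is filled in every panel.

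The coding sequences of the 40 genes (GENCODE v44, 1 canonical transcript per gene) are rich in the codons read by CTU2-dependent tRNAs. AAA, GAA and CAA together made up a median of 12.1% of their codons (2.33% in AURKB, the lowest, to 24.7%), against 6.63% over 10735 genes tested, and 34 of the 40 lay above that median. GAA alone was at 5.36% against 2.90% and AAA at 4.54% against 2.40%. Of their G-ending partners, GAG was at 3.45% against 3.74% and AAG at 4.07% against 3.15%. Across the 40 genes, which are not independent replicates and share libraries, the share of AAA, GAA and CAA had a Pearson's r of 0.14 (Spearman's rho 0.04) with the log2 change in siCTU2 and of 0.16 (0.16) with that in mQ.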

How the data were processed

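RNA of 72 libraries was measured by QuantSeq. The deposited values are raw counts per gene. Per the labels and the study's methods, the authors trimmed forward reads with fastp 0.20.1, mapped them to GRCh38.p13 with HISAT2 2.2.1 and counted them with HTSeq 0.13.5 over the NCBI annotation. No molecular identifiers were stated, so counts may hold PCR copies. Groups and replicate numbers came from the sample titles, and 0 sample columns were left over.

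Counts were tested with edgeR 4.0.16 (filterByExpr, quasi-likelihood F-test, no replicate term, R 4.3.3), with Benjamini-Hochberg adjustment over all genes tested and a threshold of 0.05. SE are those of the log2 fold change. Fits at 0 h used TMM and 6 libraries of the T arm. Fits of decay and of cycloheximide used the 12 libraries of a condition at 0 and 3 h, and differences between conditions used 24. These were scaled to stable genes after the study's methods. Stable genes had, in each of the 12 time courses of an experiment, a 0 h CPM above 0.2 and a rise to 1.1 times or more by 3 or 5 h, with the 0 h CPM above 0.1 times the later CPM. There were 198 such genes in the siRNA experiment and 82 in the medium experiment, with 0 of the 40 genes among them. Alternatives were DESeq2 1.42.0, TMM, no filter, stable genes at both times, a replicate block, 5 h, other 0 h libraries and each replicate left out.

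The 40 genes and the other lists were chosen with earlier results of these data known. Named with statistics were the 8 largest changes in each direction past the threshold and, in every comparison, CCNB1, CDK1, PLK1, AURKA, TOP2A and MKI67, with the 3 largest of each other list. Further genes of a role were named after their values were seen. Scripts were tested on simulated data. Same-numbered libraries correlated at over 0.1 in every pair (deviations from group means over 9663 genes) for decay and cycloheximide in siCTU2 and pQ and for cycloheximide in mQ. The column headers of the counts give same-numbered libraries a shared prefix but do not say what it marks. The pairing used here comes from the check.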

Additional observations from a re-analysis of the deposited data

Results flagged for a closer look

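Outside the 40 genes, GINS1, a subunit of the replicative helicase from the list of G1/S and replication genes, differed in decay between siCTU2 and siGL2. In the fit of each condition, its log2 change over 3 h of triptolide was −1.99 in siCTU2 and −0.28 in siGL2, and the test of the difference gave −1.72 ± 0.37 (SE, adjusted p = 0.0104, edgeR on 24 libraries). In siCTU2 it stood at 10.9, 8.76 and 7.85 CPM at 0 h and at 3.15, 3.65 and 2.64 CPM at 3 h (T arm). In siGL2 it stood at 35.9, 39.5 and 38.6 CPM at 0 h and at 46.6, 45.2 and 31.2 CPM at 3 h. The call was lost without replicate 1 (−1.40, adjusted p = 0.688) and at 5 h (−1.84, adjusted p = 0.872), and held over the other alternatives run, with adjusted p from 1.06e-07 to 0.014. None of the 40 mitotic genes passed in the same fit.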

How the results depend on the processing

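Of the comparisons of named genes under alternatives, 1248 kept direction and side of the threshold, 35 passed only under the alternative, 132 no longer passed and 68 changed sign, mostly for values near 0. The cause of a change was not tested except where the setting uses fewer libraries. At 0 h, the members called stayed between 20 and 30 in siCTU2 and between 13 and 27 in mQ with 1 library left out, and a block of replicate numbers gave 32 and 15 calls, where the same numbers did not deviate together in every pair. The TCHX arm gave 4 calls in mQ, and TOP2A there was −0.35 (−0.32 without pQ replicate 3, −0.15 with both arms). Calls for decay are limited by the scale: TMM gave 2, 4, 7 and 5 members called in siCTU2, siGL2, mQ and pQ, with sign changes for CCNB1 (0.12, 0.04, 0.02 and 0.02), for PLK1 in siCTU2 (0.18) and pQ (0.06) and for CDK1 in mQ (0.00), while 5 h gave 19 in mQ. With 1 replicate number left out, decay gave 17 to 39 members in siCTU2, 28 to 35 in siGL2, 34 to 39 in mQ and 24 to 39 in pQ. Of the 12859 to 13377 genes tested, 6360 to 8675 were then called in siCTU2, 5384 to 6491 in siGL2, 7698 to 8836 in mQ and 6014 to 8783 in pQ.

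For cycloheximide, the replicate block gave 12 members in siCTU2, 11 in siGL2, 13 in mQ and 3 in pQ. In siGL2 the same numbers did not deviate together in every pair, and CDK1 was 0.01 there under the block. The block changed none of the counts for differences between conditions, which stayed at 0. Subtracting the 0 h difference gave 2, 1, 1 and 0 members in siCTU2, siGL2, mQ and pQ, with CCNB1 in siCTU2 at 0.13, CDK1 in mQ at 0.00, and MKI67 (−0.08) and PLK1 (0.21) in pQ. TMM gave 2 in siCTU2, 1 higher and 1 lower (1704 of 13226 genes tested), and 3 in mQ (1676 of 13062). No filter gave 7 in siCTU2 (2002 of 23438), 5 in siGL2 (1245 of 22806) and 0 in pQ (820 of 24008). DESeq2 gave 2 in pQ (902 of 12980), as did leaving out pQ TCHX 0 h replicate 3. Stable genes at both times (8 and 3 genes) gave 0 in siCTU2 (946 of 13226), 1 in siGL2 (961 of 12845) and 0 in pQ (539 of 12980). The counts in brackets are of all genes called in either direction. PLK1 in siCTU2 was −0.11 with TMM and −0.01 with stable genes at both times, which put CDK1 at 0.09 in siGL2 and 0.00 in pQ. Leaving out a replicate number gave 0 to 5 members in siCTU2, 0 to 3 in siGL2, 2 to 6 in mQ and 0 to 3 in pQ. The calls over all genes in these fits are given with the cycloheximide results.

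At 5 h, cycloheximide calls were 0 in mQ and 1 in siGL2, with CCNB1 (−0.01), CDK1 (−0.06) and TTK (−0.06) below 0 in mQ, CDK1 at 0.51 in siGL2 and PLK1 at 0.30 in pQ. With replicate 3 left out, chosen after seeing the data like the other settings that name a replicate 3 library, siGL2 had 16 calls, pQ 7 and siCTU2 0, with CDK1 at −0.11 and CENPA at −0.16 in siCTU2, CDK1 at 0.56 in siGL2 and PLK1 at 0.22 in pQ. At 5 h with replicate 3 left out, the decay difference mQ minus pQ gave 4 members.

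None of the differences between conditions passed for the core genes. For decay in siCTU2 minus siGL2, TMM gave CDK1 0.04 and TOP2A 0.08. At 5 h, CCNB1 was −0.34, CDK1 0.14 and AURKA −0.12, and −0.25, 0.25 and −0.09 with replicate 3 left out. For decay in mQ minus pQ, CCNB1 was 0.08 at 5 h. For cycloheximide in siCTU2 minus siGL2, no filter gave 1 member, CENPA. TMM gave MKI67 −0.04 and TOP2A −0.11, and 5 h gave AURKA 0.12 and CDK1 −0.28, with CDK1 at −0.67 and TOP2A at −0.15 when replicate 3 was left out. In mQ minus pQ at 5 h, AURKA was −0.03, CCNB1 −0.09, CDK1 −0.31, MKI67 −0.07, PLK1 −0.04 and TOP2A 0.04, with TOP2A at 0.39 when replicate 3 was left out.

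With 1 replicate left out, the following ranges crossed 0: TOP2A (−0.14 to 0.14) and MKI67 (−0.15 to 0.07) in mQ at 0 h, CCNB1 (−0.02 to 0.02) and PLK1 (0.00 to 0.07) for cycloheximide in siCTU2, CDK1 in siGL2 (−0.05 to 0.06) and PLK1 in pQ (−0.06 to 0.02). For differences they were CCNB1 (−0.01 to 0.03) and TOP2A (−0.07 to 0.03) for decay and AURKA (−0.10 to 0.01) and TOP2A (−0.02 to 0.02) for cycloheximide in siCTU2 minus siGL2, and CCNB1 for decay (−0.11 to 0.12) and TOP2A for cycloheximide (−0.12 to 0.05) in mQ minus pQ.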
